A study of Mus musculus with 4 samples.

Results

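Forkhead factor genes encode DNA-binding proteins that share a winged-helix domain and are named Fox, a class letter and a number. They are described here by the TLE3 chromatin regions near their start sites in mouse adipocytes of 3 fat depots. A gene was taken when its name had this form with a letter from a to s and at least 1 region of the joined table lay within 50 kb of the start site to which the authors' annotation assigned it. Of 13381 genes with such a region, 27 were forkhead genes, and 85 of the 69599 joined regions belonged to them. The 27 genes were 61.4% of the 44 protein-coding forkhead genes in the RefSeq table, beside 50.1% of all 21900 protein-coding genes with a region of that kind. Of the other genes, Foxa2, Foxd3 and Foxf2 were assigned only regions beyond 50 kb. Foxc2, Foxf1, Foxk2, Foxo4 and Foxp3 were among those assigned no joined region.

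TLE3, a Groucho-type corepressor that binds DNA only through other proteins, was mapped by chromatin immunoprecipitation and sequencing (ChIP-seq) with an antibody against TLE3. There was 1 TLE3 library each from epididymal white (eWAT), inguinal white (iWAT) and brown (BAT) adipocytes, and 1 input library, made from the iWAT adipocytes only. All 4 came from cultured stromal-vascular cells of male NMRI mice aged 4 to 5 weeks, with fat pooled from 10 to 15 mice, and the brown cells came from interscapular, cervical and axillary fat together. Each culture received insulin (30 nM) and the PPARγ agonist rosiglitazone (1 µM) and was harvested on day 8 at over 50% differentiation. Cells were fixed for 15 min in 2 mM disuccinimidyl glutarate, then for 30 min in 1% formaldehyde. With 1 library per depot there was no replicate error, so no difference below carries a test or a p-value, and depot, animal pool and library cannot be told apart. In such bulk cultures fewer cells with TLE3 at a region and less TLE3 per cell cannot be told apart either. ChIP of TLE3 measures no expression, so neither the depot labels nor the presence of undifferentiated cells could be checked by marker levels, and the level of no forkhead RNA or protein is known from these data.

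Insulin controls the FOXO class through AKT, which phosphorylates these factors so that they leave the nucleus. In adipocytes FOXO1 is known to restrain differentiation and to act on lipolysis and stress genes when insulin falls. Several forkhead proteins, FOXA and FOXD among them, are known to recruit Groucho-type corepressors, and FOXP proteins are repressors themselves. TLE3 is known to act with PPARγ in fat cell differentiation.

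The letters of the start sites could be read only from RefSeq promoter windows of build GRCm38.p6, which reach from 250 bases before to 50 bases after a start. The regions are on mm9, of which no genome was used here. For 17 of the 27 genes there were windows, 19 in all. The 4 stretches below hold, in capitals, a motif of the family itself or of factors that act in fat cells, at start sites of genes described further on. Those of Foxe3 and Foxn3, with a nuclear receptor element, are named below but not shown. Each is written 5′ to 3′ along the strand of its gene.

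Foxa1: atactgctttGTAAACAaagtgagggc

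Foxp1: gtgtttgtgtTTATGCAAaggggcctct

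Foxj2: ctgctccctcTCCCTTGGGAgggaggaccc

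Foxo1: tactgccgccTCCCGAGGGAaggcagcgcc

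The Foxa1 stretch holds the forkhead motif TGTTTAC on the opposite strand, 141 bases before the start site, in the window on chromosome 12 from 57546062 to 57546361 (minus strand). This motif was in 1 of the 19 forkhead gene windows and in 3.65% of all 32851 windows. The Foxp1 stretch holds the C/EBP motif TTGCNNAA on the opposite strand, 74 bases before a start site, in the window on chromosome 6 from 99266466 to 99266765 (minus strand), 1 of 3 windows of this gene. No other forkhead gene window held it, beside 10.8% of all windows. The stretches of Foxj2 and Foxo1 hold the motif of early B cell factors, a palindrome around 2 free bases. At Foxj2 it lay 22 bases after the start site (chromosome 6 from 122819934 to 122820233, plus strand) and at Foxo1 92 bases before it (chromosome 3 from 52268087 to 52268386, plus strand). These were the 2 forkhead gene windows that held it, beside 0.904% of all windows. AGGTCA, the element of many nuclear receptors, was in the windows of Foxe3 and Foxn3, beside 16.3% of all windows, and the TCF motif CTTTGAT was in none of the 19, beside 3.73%. Both strands were searched, and no window held more than 1 of the 5 motifs. A match is a description of letters, and no forkhead region of these libraries lay within 1 kb of a start site.

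TLE3 regions of forkhead genes lay away from the start sites. The number within 1 kb was 0 of 85, beside 5.3% of all 39602 regions within 50 kb, and the nearest was at Foxp1, 1.19 kb upstream of a start site. Within 5 kb there were 8 (9.41%, beside 20.9% of all regions), and within 10 kb there were 25 (29.4%, beside 36.1%). The median distance was 22.2 kb, beside 15.5 kb. Intergenic sequence held 42 of the regions (49.4%, beside 40.8%) and introns held 41 (48.2%, beside 51.3%), while 1 lay in an exon, of Foxn2, and 1 at a transcript end, of Foxn4. Inside a transcript of the forkhead gene itself lay 40 regions. Another 3 lay in a neighbour's intron: 2 of the Foxc1 regions in Gmds and 1 of the Foxq1 regions in 1700018A04Rik. The assignment to a gene rests on the nearest start site alone.

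The 50 kb limit had regions close on either side. Just inside it were a Foxp1 region at 49.3 kb with 7.06 eWAT, 5.26 iWAT and 19.4 BAT scaled reads, and a Foxa1 region at 45.7 kb with 57.4, 77.3 and 30.4. Just outside were a Foxc1 region at 53.4 kb with 0.88, 17.9 and 0 scaled reads and a Foxl1 region at 53.8 kb with 19.4, 15.8 and 2.77. Values are reads in a region of 230 bp between start and end, as scaled by the authors, and the same regions were summed in each library. In these units 1 read was worth 0.883 (eWAT), 0.526 (iWAT), 2.77 (BAT) and 0.651 (input), so the BAT library was the shallowest and its values are the least precise. A count of 0 reads allows up to 3 reads, which is 2.65 (eWAT), 1.58 (iWAT) and 8.3 (BAT) on this scale.

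Every region in a depot's deposited list had at least 15 scaled reads there and at least 10 times the input. Such a listed region was near 22 of the 27 forkhead genes in eWAT (81.5%, beside 89.0% of the 13381 genes), near 23 in iWAT (85.2%, beside 82.6%) and near 13 in BAT (48.1%, beside 41.9%). These shares were near those of all genes. Among the 85 regions, 14 were listed in all 3 depots (16.5%, beside 15.9% of regions within 50 kb), and 27 in both white depots but not in BAT (31.8%, beside 33.8%). A single depot listed 20 in eWAT (23.5%, beside 25.4%), 17 in iWAT (20.0%, beside 18.8%) and 3 in BAT (3.53%, beside 3.52%). The 3 regions of BAT alone were near Foxk1, Foxn4 and Foxp1. An absent listing was not an absent value: in BAT 11 regions (12.9%, beside 9.9% of regions within 50 kb) reached 15 scaled reads without being listed, all 11 under 10 times the iWAT input. In iWAT there were 10 of these (11.8%, beside 6.65%), all 10 under that limit, and in eWAT 5 (5.88%, beside 4.35%), of which 4 were.

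Foxp1 had the highest sum and the most regions of the family. Its sum was 784 eWAT, 1041 iWAT and 315 BAT scaled reads, over 20 regions that together spanned 515 kb, all in Foxp1 introns and assigned to 4 start sites. Only 14 of 13381 genes had 20 or more regions, and 99.8% of genes had a lower mean sum than Foxp1. It held 26.7% of the family's mean sum. Per region, the scale on which genes of unequal region number can be compared, Foxp1 was close to the others: 35.7 scaled reads, beside a median of 27.1 over the 27 genes and of 23.8 over all genes. Foxj2 was highest per region with 74.4, followed by Foxn2 with 60.3.

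After Foxp1, the sums fell steeply. In the order eWAT, iWAT and BAT, Foxe1 had 256, 312 and 88.5 scaled reads over 7 regions. For Foxi1 they were 265, 242 and 133 over 5. For Foxo6 they were 219, 183 and 182.5 over 5. Of these 3, Foxo6 alone had a BAT sum level with its iWAT sum. Then came Foxj2 with 215.5, 164.5 and 66.4 over 2 regions. Foxk1 had 169, 173 and 63.6 over 7. Foxo3 had 153, 183 and 36.0 over 6. Each of these 3 was lowest in BAT on the authors' scale. A median forkhead gene had 75.1, 71.5 and 30.4 scaled reads, beside 69.8, 64.1 and 22.1 for a median gene. These medians lay close to each other. The median number of regions was 2.0 for forkhead genes and 2.0 for all genes.

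**Figure D1:**
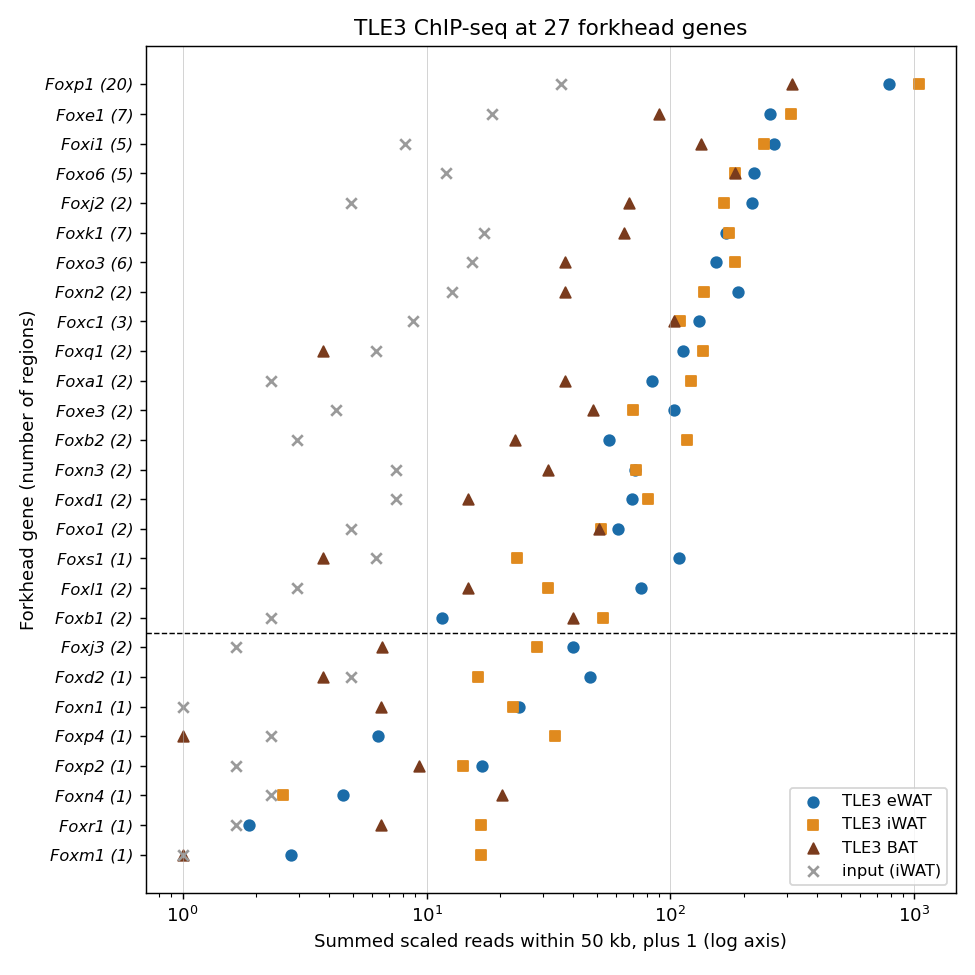
Summed scaled reads within 50 kb, plus 1, on a log axis, for the 27 forkhead genes in the order of their mean, with the number of regions in brackets; circles, squares and triangles are the eWAT, iWAT and BAT TLE3 libraries and crosses the iWAT input. Foxp1 stands highest with 784, 1041 and 315, and the 8 genes under the dashed line had a mean under 30 scaled reads and enter no ratio.

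Differences between depots are given as log2 ratios relative to the median gene, for the 19 forkhead genes whose mean reached 30 scaled reads. The interval in brackets is the 95% Clopper-Pearson interval of how the reads split between 2 libraries, which covers counting error only. On the authors' scale the median gene lay at 0.16 (eWAT over iWAT), −1.54 (BAT over eWAT) and −1.49 (BAT over iWAT). A gene could reach the mean of 30 through the depot where it was high, so counts of the 19 describe these libraries and support nothing further. Between the white depots, eWAT was past 2-fold higher at 2 genes (10.5%, beside 5.3% of the 9099 genes compared) and past 2-fold lower at 2 (10.5%, beside 9.04%). The median over the 19 was −0.18, where the middle of all genes reached from −0.43 to 0.36 (lower to upper quartile). BAT was past 2-fold higher than eWAT at 4 genes (21.1%, beside 12.2%) and lower at 2 (10.5%, beside 17.5%), with a median of 0.22. It was past 2-fold higher than iWAT at 4 (21.1%, beside 14.7%) and lower at 3 (15.8%, beside 17.0%), with a median of 0.05. Both BAT comparisons share the BAT library. Ratios of single regions below are relative to the median region, at 0.18, −1.63 and −1.60 in the same order.

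The BAT counts depended on what was set to 0. On the authors' own scale the split of higher to lower genes was 1 to 14 against eWAT and 0 to 13 against iWAT, in place of 4 to 2 and 4 to 3. With the regions listed in all 3 depots set to 0 it was 1 to 6 and 0 to 9. With all regions set to 0 the split against iWAT was 6 to 2. The white depot split of 2 to 2 was the same under each of these. With a 10 kb window, which left 8 genes to compare, the BAT split turned to 0 to 4 against eWAT and 1 to 5 against iWAT. In particular Foxc1, Foxo1 and Foxo6 were past 2-fold higher in BAT relative to the median gene but below 0 on the authors' scale, and so was Foxb1 against iWAT.

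**Figure D2:**
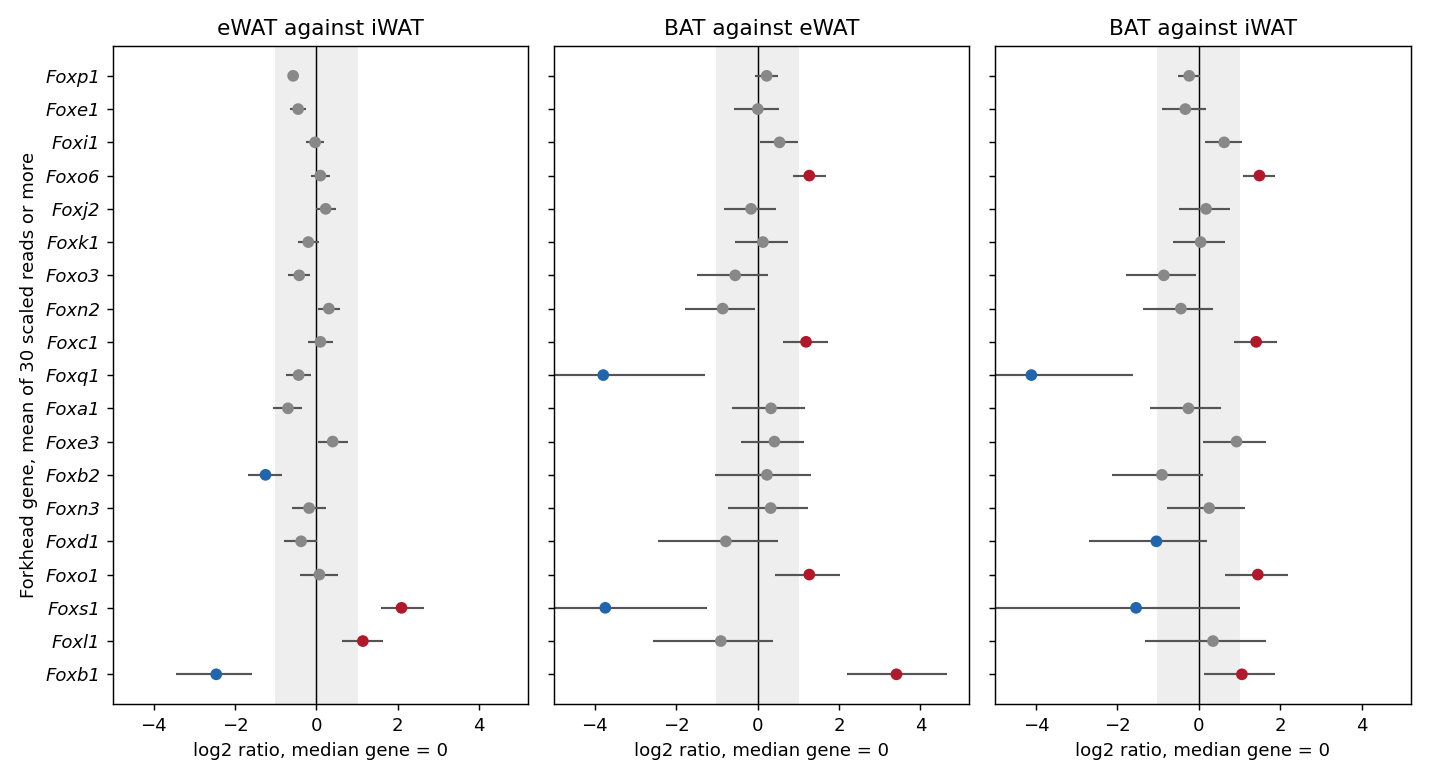
Log2 ratio of summed scaled reads for the 19 forkhead genes with a mean of at least 30, with the median gene at 0, for each depot pair; lines are 95% intervals of the read split (counting error only), which may run past the panel edge, the grey band is within 2-fold, and red and blue points are past 2-fold higher or lower in the first depot. Foxs1 and Foxl1 lie to the right and Foxb1 and Foxb2 to the left for eWAT against iWAT, and Foxb1, Foxc1, Foxo1 and Foxo6 lie to the right in both BAT panels, although on the authors' scale Foxc1, Foxo1 and Foxo6 turn below 0 in both and Foxb1 in BAT against iWAT.

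Among the P class, Foxp1, which encodes a repressor known from lymphocytes, heart and lung, had a lower sum in eWAT than in iWAT by a small margin under each scaling tried. Its ratio was −0.57 (−0.69 to −0.46) for eWAT over iWAT, inside the 2-fold limit. Against BAT its sums differed little from the median gene: 0.22 (−0.07 to 0.51) over eWAT and −0.24 (−0.52 to 0.04) over iWAT. The strongest region lay 1.19 kb upstream of a start site, on chromosome 6 from 99386412 to 99386642 (mm9), with 114 eWAT, 155 iWAT and 69.1 BAT scaled reads. It was listed in all 3 depots and held 15.8% of the gene's mean.

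The difference between the white depots was uneven over the Foxp1 regions. Of the 17 with a mean of 15 scaled reads or more, 5 were past 2-fold lower in eWAT and 0 were higher (beside 16.6% and 10.3% of all regions compared). The most unequal with a mean of at least 30, from 99013968 to 99014198, had 15.9 eWAT, 78.8 iWAT and 5.53 BAT scaled reads, a ratio of −2.49 (−3.28 to −1.78) for eWAT over iWAT. A weaker region with a mean of 27.1, from 98963730 to 98963960, named after its values were seen, had 7.06, 68.8 and 5.53 (−3.46, −4.70 to −2.44). In contrast a region from 99435174 to 99435404 had 75.1 and 65.7 in eWAT and iWAT but 5.53 in BAT, a ratio of −2.14 (−5.21 to −0.24) for BAT over eWAT, on 2 BAT reads. Of the 5 regions lower in eWAT, 4 thus lay toward the lower coordinates of the gene, while the strongest region was listed in all 3 depots. Between BAT and eWAT, Foxp1 had 2 regions past 2-fold higher and 3 lower (beside 22.1% and 20.0% of all regions compared). Of these, only the region from 99435174 had an interval off 0. Between BAT and iWAT there were 2 higher and 6 lower (beside 24.0% and 20.0%). The lower calls from 99447428, 98944279 and 99397009, on 1 to 3 BAT reads, had intervals that took in 0. So did the higher call from 99421028, and the interval of the other higher call began at 0.014. Beyond 50 kb Foxp1 was assigned 29 more regions, with sums of 803, 939 and 301.5 scaled reads, so that 51.2% of its mean lay within the window.

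**Figure D3:**
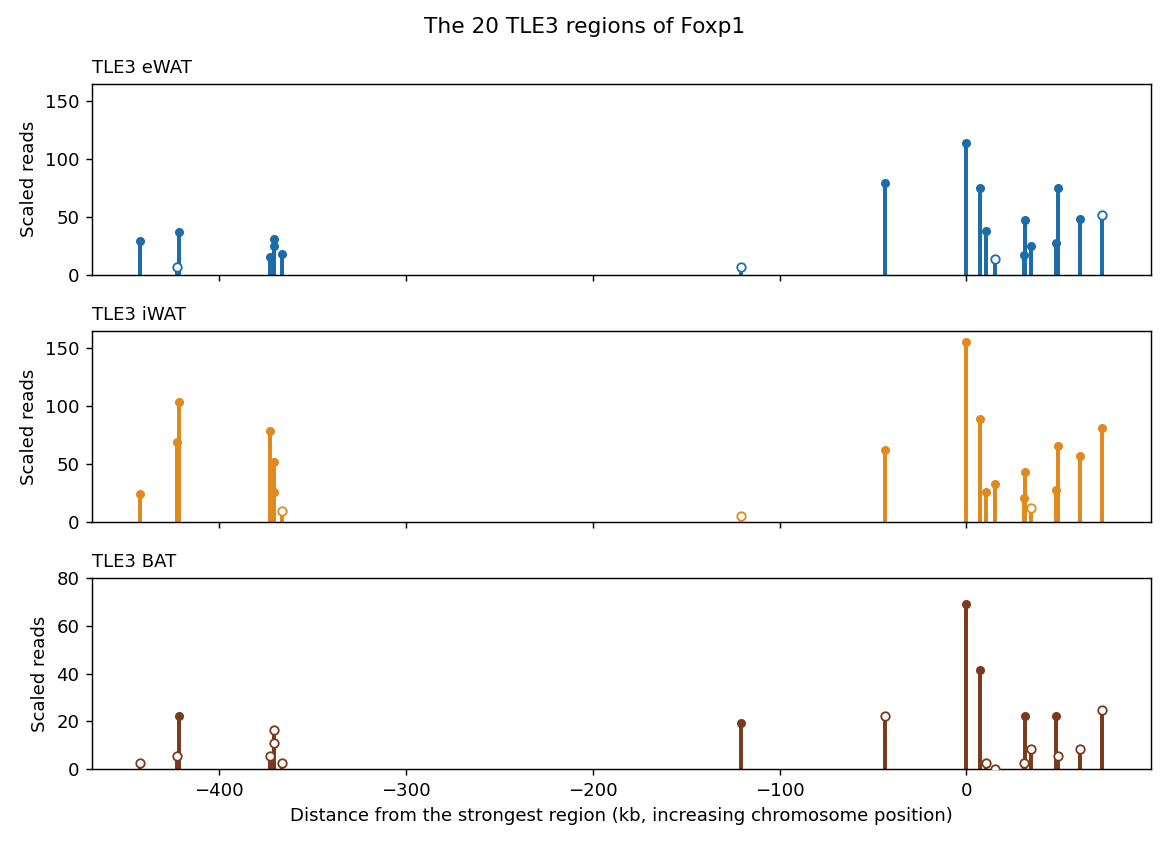
Scaled reads at each of the 20 Foxp1 regions against the distance from the strongest region in kb, in the 3 TLE3 libraries, with filled points for regions in that depot's list and open points for the others; the BAT panel has its own scale, up to 80. The strongest region has 114, 155 and 69.1 scaled reads, and 4 regions in the groups at the far left are more than 2-fold taller in iWAT than in eWAT.

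The 3 genes whose depot pattern was nearest to Foxp1, among 116 with a mean of 500 scaled reads or more, were Thbs2, Epb41l2 and Zfp608. The largest of their 3 pairwise log2 differences from Foxp1 was 0.12, 0.12 and 0.13. Thbs2 had 589.9 eWAT, 729 iWAT and 218.5 BAT scaled reads. The other P class genes were low. Foxp2, known for its part in speech and motor circuits, had 15.9, 13.1 and 8.3 scaled reads in 1 region within 50 kb. Beyond 50 kb it had 10 regions with 222, 252 and 108. Foxp4 had 5.3, 32.6 and 0 in 1 region listed in iWAT only.

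Of the 3 FOXO genes, Foxo1 and Foxo6 had nearly equal TLE3 sums in BAT and iWAT on the authors' scale, and Foxo3 did not. Foxo6, whose protein is known to stay mostly in the nucleus, had 219 eWAT, 183 iWAT and 182.5 BAT scaled reads. BAT over eWAT was 1.27 (0.86 to 1.67) and BAT over iWAT 1.49 (1.08 to 1.87) relative to the median gene, while on the authors' scale these turned to −0.26 and −0.0029. The white depots did not differ beyond the interval (0.10, −0.14 to 0.34). Relative to the median region, 3 of its 4 regions with a mean of at least 15 were past 2-fold higher in BAT than in eWAT (beside 22.1% of all regions compared). Against iWAT 3 of 4 were so (beside 24.0%). On the authors' scale BAT was above eWAT at 1 of the 3 and above iWAT at 2.

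Its strongest region, also its most unequal, lay 39.6 kb downstream of the start site in intergenic sequence, on chromosome 4 from 119920136 to 119920366. It had 46.8 eWAT, 78.3 iWAT and 74.7 BAT scaled reads, 2.30 (1.57 to 2.99) for BAT over eWAT. A region in a Foxo6 intron 3.87 kb downstream had 63.6, 48.4 and 49.8, and those at 2.97 and 6.38 kb upstream had 8.3 in BAT, which is 3 reads. Within 10 kb alone, Foxo6 came to 0.69 for BAT over eWAT, inside 2-fold, and to 1.22 for BAT over iWAT, still past it. The BAT excess of Foxo6 relative to the median region thus lay at the 2 distant downstream regions and the intronic one.

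Foxo1, the FOXO gene best known from insulin action in fat and liver, had fewer reads within 50 kb: 60.1 eWAT, 51.0 iWAT and 49.8 BAT scaled reads over 2 regions. BAT over eWAT was 1.27 (0.43 to 2.03) and BAT over iWAT 1.45 (0.64 to 2.19) relative to the median gene, and −0.27 and −0.03 on the authors' scale. The BAT sum rested on 18 reads. Its strongest region lay 10.1 kb upstream, on chromosome 3 from 52062046 to 52062276, with 45.9, 31.5 and 27.7 scaled reads, and the intronic region 6.37 kb downstream had 14.1, 19.4 and 22.1. Most of the TLE3 assigned to Foxo1 lay farther out. Its 11 regions beyond 50 kb summed to 393, 386 and 254 scaled reads, so that the 50 kb window held 13.5% of its mean. The window to 100 kb gave 0.74 and 0.73 for BAT over eWAT and over iWAT, inside 2-fold.

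On the authors' scale, where the median gene was also lower in BAT, Foxo3 had 153 eWAT, 183 iWAT and 36.0 BAT scaled reads. Relative to the median gene, BAT over iWAT was −0.86 (−1.78 to −0.07) and BAT over eWAT −0.55 (−1.49 to 0.26), which takes in 0. The eWAT over iWAT ratio was −0.42 (−0.69 to −0.16), and all were inside 2-fold. Its strongest region, in an intron 45.2 kb downstream, had 42.4, 73.6 and 24.9 scaled reads. The most unequal one with a mean of at least 30, from 41990583 to 41990813 on chromosome 10, had 69.8, 32.1 and 11.1, so the 2 intronic regions had their maxima in different white depots. The other 4 had 0 BAT reads each, and the 2 above carried all 13 BAT reads. No Foxo3 region was listed in BAT.

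**Figure D4:**
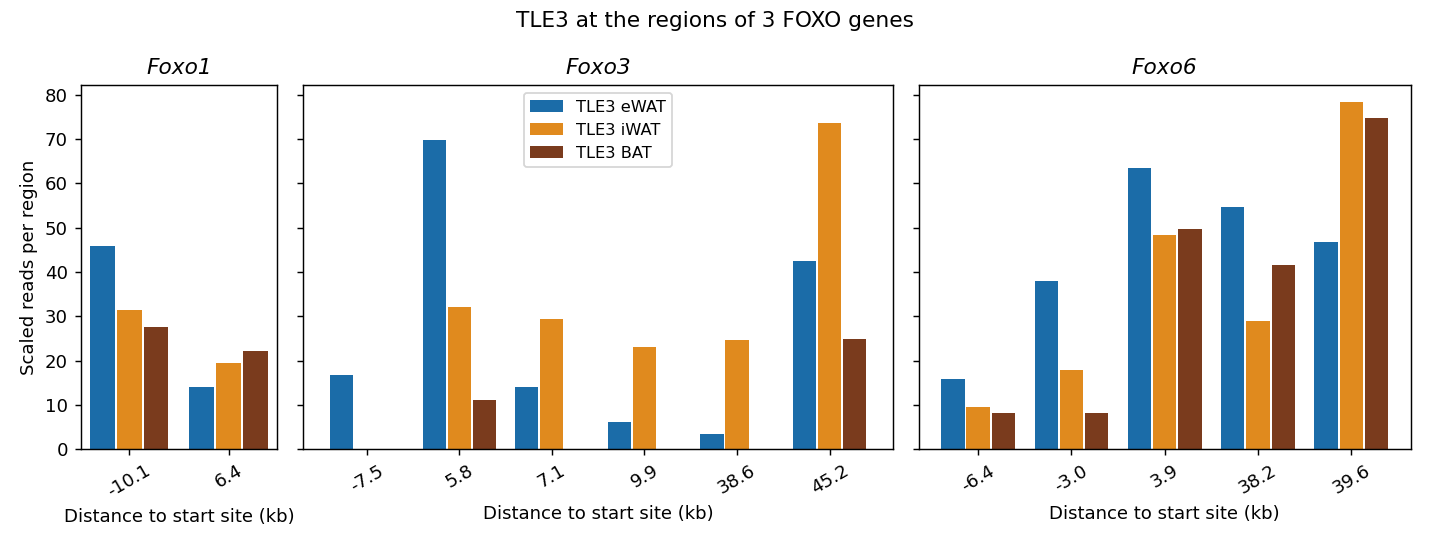
Scaled reads at each region of Foxo1, Foxo3 and Foxo6, labelled by distance to the start site in kb (negative is upstream), with blue, orange and brown bars for the eWAT, iWAT and BAT TLE3 libraries. At Foxo6 the BAT bars at 39.6 and 38.2 kb reach 74.7 and 41.5, while at Foxo3 only the regions at 5.8 and 45.2 kb have BAT reads.

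The genes around FOXO were read from 2 lists. Of 30 genes of insulin, AKT and FOXO signalling, 26 had a region within 50 kb, and 22, 22 and 12 of these had a listed region in eWAT, iWAT and BAT, beside 89.0%, 82.6% and 41.9% of all genes with a region. Highest were Pik3r1, a regulatory subunit of PI3-kinase, with 616, 604 and 207 scaled reads, and Sgk1, a kinase related to AKT, with 476, 806 and 144. Insr, the insulin receptor, had 419, 539 and 246, and Pik3ca, a catalytic subunit, had 255, 239 and 47.0. Of the 20 with a mean of at least 30, the ratio was past 2-fold higher and lower at 1 and 2 genes in eWAT against iWAT (beside 5.3% and 9.04% of all genes compared), at 1 and 5 in BAT against eWAT (beside 12.2% and 17.5%), and at 2 and 5 in BAT against iWAT (beside 14.7% and 17.0%). The medians were −0.10, 0.14 and −0.38.

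Of 30 genes known as FOXO targets, 27 had a region, with 26, 23 and 18 listed in the 3 depots, beside the same 89.0%, 82.6% and 41.9%. Of the 22 with a mean of at least 30, 0 were past 2-fold between the white depots (beside 5.3% higher and 9.04% lower in eWAT over all genes). In BAT against eWAT 3 were higher and 2 lower (beside 12.2% and 17.5%), and against iWAT 5 were higher and 2 lower (beside 14.7% and 17.0%). The medians were −0.01, 0.33 and 0.29, all relative to the median gene. Klf15, a regulator of amino acid and lipid metabolism, had 564 eWAT, 521 iWAT and 1073 BAT scaled reads, 2.46 and 2.53 for BAT over eWAT and iWAT. Prkag2, an AMPK subunit, had 869.8, 781.5 and 404. Trib1 had 721.5, 612 and 332, and Pdk4, which restrains pyruvate oxidation, had 367, 334 and 218. Klf15 was the only one of these 4 whose BAT value was above both white values on the authors' scale. Rictor is in both lists.

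Foxc1, a factor of mesenchyme, vessels and eye, had 129.8 eWAT, 108 iWAT and 102 BAT scaled reads over 3 regions. BAT over eWAT was 1.19 (0.63 to 1.72) and BAT over iWAT 1.41 (0.86 to 1.92) relative to the median gene, and −0.34 and −0.08 on the authors' scale. A region in a Gmds intron 15.4 kb downstream, on chromosome 13 from 31913783 to 31914013, had 82.1, 68.8 and 88.5. This region was highest in BAT even on the authors' scale, but there by a margin within counting error. It carried 32 of the gene's 37 BAT reads. The neighbouring region at 20.7 kb was higher in eWAT than in iWAT, with 43.3 in eWAT and 9.46 in iWAT (2.02, 1.21 to 2.88). That at 6.22 kb went the other way among the white depots, with 4.42 in eWAT and 29.95 in iWAT. Beyond 50 kb Foxc1 was assigned 11 regions, all in Gmds introns, with sums of 379, 505 and 260.0, and the 100 kb window gave 0.89 and 0.78 for BAT over eWAT and iWAT.

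Foxq1, known from the hair shaft and from epithelia, lies on the same chromosome and was nearly without BAT reads. It had 111 eWAT, 134.5 iWAT and 2.77 BAT scaled reads, where 2.77 is 1 read. BAT over eWAT was −3.79 (−9.11 to −1.29) and BAT over iWAT −4.11 (−9.42 to −1.62). Of its mean, 86.9% was in 1 region, 9.24 kb downstream in an intron of 1700018A04Rik, from 31659164 to 31659394, with 103, 109.8 and 2.77. The 100 kb window took in 1 further region, 76.5 kb upstream with 91.8, 98.8 and 44.2 scaled reads (16 BAT reads), and brought these ratios to −0.58 and −0.81.

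Foxs1, first described in sensory neurons, had the largest eWAT excess over iWAT among the 19 genes compared. Its single region, 4.74 kb downstream on chromosome 2 from 152754087 to 152754317, had 108 eWAT, 22.6 iWAT and 2.77 BAT scaled reads. The eWAT over iWAT ratio was 2.09 (1.58 to 2.63), a 4.26-fold excess. BAT over eWAT was −3.74 (−9.06 to −1.24) on 1 BAT read, and BAT over iWAT was −1.54 (−6.88 to 1.01), an interval that takes in 0. The region was listed in eWAT only, and the input had 5.21 there.

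Foxl1, a factor of gut mesenchyme, had 75.1 eWAT, 30.5 iWAT and 13.8 BAT scaled reads, 1.14 (0.64 to 1.64) for eWAT over iWAT. Its stronger region lay 36.6 kb downstream with 58.3, 22.6 and 5.53. Only 12.5% of the TLE3 assigned to Foxl1 was within 50 kb, since 14 regions lay farther out, and at 100 kb the ratio was 0.74.

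The B class differed toward iWAT. Foxb2 had 54.8 eWAT, 116 iWAT and 22.1 BAT scaled reads, −1.25 (−1.68 to −0.84) for eWAT over iWAT. Its strongest region, 25.0 kb upstream on chromosome 19 from 16973183 to 16973413, had 28.3, 96.7 and 16.6 (−1.95, −2.54 to −1.40), while the weaker one had 26.5 and 19.4 in eWAT and iWAT. Foxb1, known from the hypothalamus, had 10.6 eWAT, 52.0 iWAT and 38.7 BAT scaled reads. The eWAT over iWAT ratio was −2.46 (−3.46 to −1.59) and BAT over eWAT 3.41 (2.19 to 4.65), the latter on 14 BAT and 12 eWAT reads. BAT over iWAT was 1.06 (0.14 to 1.88) relative to the median gene and −0.43 on the authors' scale. Neither Foxb1 region was listed in eWAT. Beyond 50 kb Foxb1 had 4 more regions with 203, 169 and 16.6 scaled reads, and at 100 kb its white depot ratio was 0.01 and BAT over eWAT −0.69, so the Foxb1 ratios changed with the window. Within 50 kb its 2 regions were unlike in BAT: that at 23.4 kb had 6.18, 24.2 and 36.0 with 13 of the 14 BAT reads, and that at 37.6 kb had 4.42, 27.9 and 2.77.

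Among the remaining genes with high sums, Foxe1, a thyroid factor, was mixed. The eWAT over iWAT ratio was −0.45 (−0.66 to −0.24), and BAT over eWAT was 0.00 (−0.57 to 0.53). Its strongest region, 40.0 kb upstream on chromosome 4 from 46316984 to 46317214, had values of 53.9, 89.3 and 22.1. The most unequal, from 46348745 to 46348975, had 46.8, 50.5 and 2.77, the last being 1 read, while a region from 46320365 to 46320595 had 14.1, 21.6 and 19.4 and was past 2-fold higher in BAT than in either white depot relative to the median region, though on the authors' scale its BAT value lay between theirs.

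Foxi1, which marks acid-secreting cells of kidney and inner ear, had its strongest region 12.0 kb upstream on chromosome 11 from 34120001 to 34120231 with 102, 97.8 and 44.2 scaled reads. Another, 29.1 kb downstream from 34078837 to 34079067, had 38.0, 22.1 and 60.8. It was thus highest in BAT on the authors' scale too, although over eWAT by a margin within counting error there. Relative to the median region, BAT over iWAT was 3.07 (2.25 to 3.84) at this region. Over the whole gene BAT over iWAT was 0.62 (0.16 to 1.05) relative to the median gene, though on the authors' scale its BAT sum was the lowest. Both of these regions were listed in all 3 depots, so they differed in their BAT values and not in their listing.

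Foxj2 rested on 1 strong region, 37.7 kb upstream on chromosome 6 from 122732361 to 122732591, with 189, 141 and 55.3 scaled reads, 86.4% of its mean. That region had the highest mean of all 85, and its ratios were all inside 2-fold. Foxk1, known from nutrient signalling and glycolysis, had 7 weak regions. Its strongest, 38.4 kb upstream from 142838927 to 142839157 on chromosome 5, had 47.7, 41.5 and 22.1, and it was the only one with a mean of at least 30. An intronic region from 142886439 to 142886669, named after its values were seen, had 16.8, 64.1 and 0. A BAT-listed one from 142903725 to 142903955, named in the same way, had 10.6, 15.8 and 27.7. Summed over the gene the ratios were −0.20 (−0.46 to 0.06) for eWAT over iWAT and 0.05 (−0.63 to 0.66) for BAT over iWAT.

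Foxn2 had 189 eWAT, 137 iWAT and 36.0 BAT scaled reads. Its strongest region was the only exonic one of the family, on chromosome 17 from 88862093 to 88862323, with 132, 108 and 30.4, and input of 9.11. A region from 88857504 to 88857734 had 57.4, 28.4 and 5.53, and BAT over eWAT for the gene was −0.86 (−1.79 to −0.05). Foxn3, a repressor tied to cell cycle checkpoints, had 70.7, 71.5 and 30.4. Beyond 50 kb Foxn3 was assigned 9 more regions with 366.5, 305.3 and 149.3, so that 17.4% of its mean lay within the window. Foxd1, a factor of kidney stroma, had 68.9, 79.9 and 13.8. For Foxd1, BAT over iWAT was −1.04 (−2.69 to 0.21) on 5 BAT reads, an interval that takes in 0, and the strongest region alone, from 99154220 to 99154450 on chromosome 13, gave 0.50.

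Of the other genes with a mean of at least 30, Foxa1, a pioneer factor of endoderm, had 83.0 eWAT, 120.3 iWAT and 36.0 BAT scaled reads (−0.70, −1.06 to −0.35, for eWAT over iWAT). Foxe3, a lens factor, had 102, 69.4 and 47.0. Its 2 regions differed in BAT: 1 had 57.4, 44.1 and 8.3 (3 BAT reads) and the other 45.0, 25.2 and 38.7 (14 BAT reads). The BAT ratios of the former took in 0: −1.16 (−3.48 to 0.45) over eWAT and −0.81 (−3.11 to 0.79) over iWAT. Foxe3 is thus another gene with unlike BAT values at neighbouring regions, the lower one on few reads.

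Under a mean of 30 scaled reads were 8 genes. Foxj3 had 38.9, 27.3 and 5.54 scaled reads and Foxd2 45.9, 15.2 and 2.77. For Foxn1, the thymus epithelium factor, they were 23.0, 21.6 and 5.53. Foxm1, a cell cycle factor, had 1.77, 15.8 and 0, and Foxr1 had 0.88, 15.8 and 5.53, each with 1 region listed in iWAT only. Foxn4, a retinal factor, had 3.53, 1.58 and 19.4, with its region listed in BAT only on 7 reads. Genes of this level were seen through the depot that listed them, so no ratio is given.

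The shares of single regions past 2-fold, relative to the median region, were close to those of all regions. Of the 62 forkhead regions with a mean of 15 scaled reads or more, 5 were past 2-fold higher in eWAT than in iWAT (8.06%, beside 10.3% of 26849) and 10 lower (16.1%, beside 16.6%). For BAT over eWAT 12 were higher (19.4%, beside 22.1%) and 12 lower (19.4%, beside 20.0%). For BAT over iWAT 14 were higher (22.6%, beside 24.0%) and 12 lower (19.4%, beside 20.0%). The interval lay off 0 for all 15 white depot calls. It did so for 10 of the 12 higher and 3 of the 12 lower BAT calls against eWAT, and for 13 of the 14 higher and 7 of the 12 lower against iWAT. Regions past 2-fold in both directions occurred within 4 genes for BAT and eWAT (Foxe1, Foxe3, Foxi1 and Foxp1), within 3 for BAT and iWAT (Foxe1, Foxk1 and Foxp1) and within 0 for the white depots. Against eWAT, the lower calls of Foxe1, Foxe3 and Foxi1 and the higher calls of Foxp1 had intervals that took in 0. Against iWAT, each of the 3 genes had calls off 0 both ways, those of Foxe1 and the higher one of Foxp1 narrowly. The lower call of Foxk1 rested on 0 BAT reads, taken as the 3 that a count of 0 allows. The share of such genes among all genes was not computed.

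The TLE3 regions near cell type genes say only that such regions were listed, not which cells were present. A listed region was near 8, 7 and 7 of 8 adipocyte genes in eWAT, iWAT and BAT, and near 5, 5 and 5 of 7 brown adipocyte genes. For 6 fibroblast and preadipocyte genes it was 5, 4 and 3, and for 5 mesothelial genes 4, 4 and 3. It was 4, 2 and 0 of 5 macrophage genes and 3, 3 and 3 of 4 endothelial genes. Over all genes with a region the shares were 89.0%, 82.6% and 41.9%, while 1 brown adipocyte and 1 macrophage gene had no region. The part of other cells in the forkhead gene ratios was not tested.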

How the data were processed

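TLE3 ChIP-seq was analysed in 3 libraries, with 1 input, from 3 deposited tables joined by region identifier, in which no shared identifier differed. Per the submitters' processing notes, STAR, HOMER and mm9 were used, with no version or role stated, and the peak calling is not given here. The deposited values are signal, reads in a region scaled by the authors to 1 total per library. All values (100%) were whole read numbers within 0.1 read. Library totals cannot be read from a region table, and only if the authors scaled to the usual total of HOMER, 10 M reads, would they be 11.3 M (eWAT), 19.0 M (iWAT), 3.62 M (BAT) and 15.4 M (input). The deposited peak score, a score of no use here, was 0 throughout.

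Reads were summed per gene over joined regions within 50 kb of the assigned start site. Log2 ratios were set to 0 at the median of the 9099 genes whose mean reached 30 scaled reads, and for single regions at the median region with a mean of at least 15. A library at 0 took the 3 reads that a count of 0 allows. Calls are past 2-fold, and 95% Clopper-Pearson intervals cover counting error only, since each depot had 1 library. Reads carry no molecular identifiers. Each of the 27 genes is named, and 1 other forkhead gene is not reported here. In detail are the 10 with the highest mean and each past 2-fold, with the strongest region and the most unequal one of mean 30 or more. Of other lists, at most the 4 highest genes are named. The genes and lists were chosen with earlier results of these data known. Of 13381 gene names, 12994 matched RefSeq symbols. Ratios and intervals were tested on simulated data. Alternatives were 4 scalings, 2 windows, 2 minimums, the strongest region only, input subtraction, stricter and equal-sized lists and overlap by 1 bp. Python 3.11.15, numpy 2.4.6, pandas 2.3.3, scipy 1.17.1 and matplotlib 3.10.9 were used. Protein sequences and an mm9 genome were not used here.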

Additional observations from a re-analysis of the deposited data

Results flagged for a closer look

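Signal lay outside the 50 kb window at Foxa2, Foxd3 and Foxf2, which had no region inside it, and it was above the input there. Foxa2, a pioneer factor of endoderm, had 199.7 scaled reads in iWAT over 6 regions at 69.6 to 160.0 kb, beside 145 in eWAT, 41.5 in BAT and 9.76 in the input. Foxd3, a neural crest repressor, had 97.22 in iWAT at 1 region 101 kb away, beside 103, 24.9 and 1.95. Foxf2, a mesenchymal factor, had 61.49 in iWAT at 1 region 85.1 kb away, beside 9.71, 5.53 and 1.3. Whether regions at such distances act on these genes was not tested.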

How the results depend on the processing

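No paired analysis was possible because each depot has 1 library. Leaving out a library was not possible for the same reason. The count of genes past 2-fold between eWAT and iWAT, 4 in the report, was 1 with a 10 kb window, 2 with 100 kb, 8 without a minimum and 0 with a minimum of 100 scaled reads. For BAT and eWAT, 6 became 15 on the authors' scale, 2 at 100 kb, 12 without a minimum and 2 with a minimum of 100. With 10 kb the split of higher to lower, 4 to 2, was 0 to 4, and for BAT and iWAT 1 to 5 in place of 4 to 3. For BAT and iWAT, 7 became 13, 4 at 100 kb and 2 with a minimum of 100. Genes with a listed region, 22 in eWAT and 23 in iWAT, were 13 and 13 with lists of equal size and 10 and 12 within 10 kb. The 13 in BAT were 8 at 30 or more scaled reads and 3 within 10 kb. The 14 regions of all 3 depots were 8 at that minimum. With a region minimum of 30, chosen after seeing the data, region calls of 15, 24 and 26 became 5, 14 and 15, since 35 in place of 62 regions were compared.

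On the authors' scale the ratios of BAT over eWAT turned to −0.343 for Foxc1, −0.271 for Foxo1 and −0.263 for Foxo6, and those of BAT over iWAT to −0.426 for Foxb1, −0.0813 for Foxc1, −0.0344 for Foxo1 and −0.00292 for Foxo6. At 100 kb the Foxb1 ratios turned to 0.0129 (eWAT over iWAT), −0.686 (BAT over eWAT) and −0.565 (BAT over iWAT), as farther regions entered. The strongest region alone turned Foxd1 to 0.503 (BAT over iWAT). Input subtraction turned Foxs1 to 0.527 (BAT over iWAT), where BAT fell to 0 and took its allowance of 3 reads. Of 17 ratios past 2-fold, 10 kept their sign under all 4 other scalings. The white depot calls and the calls lower in BAT lay too far from 0 for these scalings to turn them. Among the calls higher in BAT, only Foxb1 over eWAT kept its sign, so the count of 10 does not measure robustness. The depth of BAT, where 1 read is 2.77 scaled reads, limits its ratios, and so does the choice of scaling.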
